A study of Camponotus floridanus with 15 samples.

Results

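In the carpenter ant *Camponotus floridanus*, sampled as whole bodies, 8 genes were abundant in the embryo, scarce in the instar 4 larva and abundant again in the early pupa. They were chosen by their measured values from 18620 genes with the ID prefix CFLOG, of which they are 0.0430%. The rule used the group mean of log2(rescaled RPKM + 1), in which RPKM is reads scaled by gene length and library total, and rescaling puts the libraries on a common scale by their median ratio. A gene was kept where its embryo and early pupa means differed by under 1.5 and both lay at least 1.5 above the means of instar 4 larva, late pupa major, late pupa minor, male and minor. Those 5 groups are called the low groups here, and instar 1 larva was free to take any value. The levels that met the rule are therefore descriptions, and they are not tested gene by gene.

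The embryo builds the larval body from undifferentiated cells. The larva then feeds and grows, and in the pupa of an insect with complete metamorphosis larval tissues are broken down while the adult body is formed. In *Drosophila*, many genes that act in patterning and tissue formation are used in embryogenesis and again at metamorphosis. The 8 genes are known here by their IDs alone, so no function can be given to any of them.

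Poly(A) RNA was sequenced in 15 libraries. The 8 groups run from the embryo through the larva, as instar 1 larva and instar 4 larva, and the pupa, as early pupa, late pupa major and late pupa minor, to the adult, as male and minor. The male has 1 library and each of the other groups has 2. Majors are the larger and minors the smaller worker caste, and the adults analysed here include no majors. The labels describe 1 housing and feeding regime and no treatment, and they name no strain, colony, age in days or number of animals per library.

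The labels do not say whether replicates came from separate animals. The p-values therefore reflect the spread among these libraries alone, and that spread may be technical. The divisor behind the RPKM values ranged from 16740000 to 34150000 reads per library, and the factors of the rescaling ran from 0.498 in instar 4 larva replicate 1 to 2.33 in embryo replicate 1. No ID could be matched to a gene name, so the labelled tissue could not be checked against markers. In whole bodies, fewer cells of a type and less RNA per cell cannot be told apart.

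Of the 18620 CFLOG genes, few were high in both the embryo and the early pupa. An embryo mean at least 1.5 above the low groups was found in 168 CFLOG genes, and an early pupa mean of that height in 74. The lists shared 9 genes, which is 5.36% of the embryo list and 12.2% of the early pupa list. Over all CFLOG genes, the early pupa list is 74 of 18620 and the embryo list 168 of 18620. Both lists were set against the same low groups, so nothing is read from the size of their overlap. The 8 genes are 8 of these 9. The remaining one, CFLOG010586.2, stood 2.81 above the low groups, but its early pupa mean was 1.77 above its embryo mean and so past the limit. In the 160 other genes of the embryo list, the median difference of early pupa from embryo was -2.17 on the log2 scale. In 29 of the 160 the early pupa mean was less than 1.5 below the embryo mean or lay above it.

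The margin over the highest low group ran from 1.70 to 3.14 with a median of 1.80. Just inside it were CFLOG009320.1 with 1.70 and CFLOG008805.2 with 1.71. Just outside it were CFLOG011420.2 with 1.42 and CFLOG026576.1 with 1.35. The embryo and early pupa means of the 8 genes differed by -1.22 to 1.498, and the highest value, that of CFLOG009320.1, lay just under the limit.

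**Figure D1:**
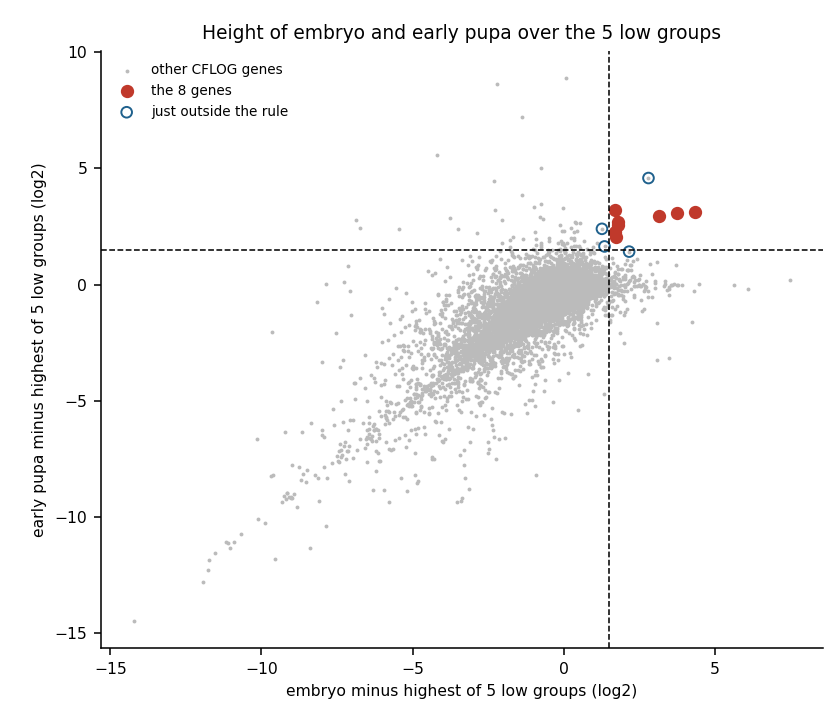
Each point is a CFLOG gene, placed by how far its embryo mean (x axis) and its early pupa mean (y axis) lie above the highest of the 5 low group means, in log2 units. Dashed lines mark 1.5, and the 8 red genes sit past both lines with 3 of them at 2.95 or more on the smaller of the axes, while the open circles are genes just outside the rule.

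The widest margins belonged to CFLOG006772.2, CFLOG007578.2 and CFLOG000825.1, which were all highest in the embryo. CFLOG006772.2, with a gene length of 777 nt in the RPKM, had the highest embryo mean of the 8 genes. Its rescaled RPKM was 48.7 and 151 in embryo, 157 and 10.3 in instar 1 larva, 0.339 and 0 in instar 4 larva, and 28.0 and 47.3 in early pupa. It was 1.12 and 3.79 in late pupa major, 0.437 and 11.5 in late pupa minor, 0 in male and 0 in both minor libraries. The embryo and early pupa libraries lay above every library of the low groups, the instar 1 larva libraries were far apart, and no read was counted in the adults. Against the higher of the minor floors, 0.328 rescaled RPKM for 3 reads per library, the embryo mean of CFLOG006772.2 was at least 305-fold higher and the early pupa mean at least 115-fold higher. Floors cover counting error alone.

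CFLOG007578.2 (1920 nt) had the second highest embryo mean, 71.1 ± 16.8 rescaled RPKM (SD, n = 2). It had 83.0 and 59.3 rescaled RPKM in embryo, 9.99 and 5.24 in instar 1 larva, 1.85 and 2.40 in instar 4 larva, and 53.2 and 34.8 in early pupa. In the later groups it had 4.53 and 3.99 in late pupa major, 0.884 and 2.07 in late pupa minor, 0.481 in male, and 0.0148 and 0.177 in minor. Both libraries of each high group lay above every other library, instar 1 larva was intermediate, and minor was lowest. The early pupa mean of CFLOG007578.2 was 20.7 times and its embryo mean 33.4 times its instar 4 larva mean.

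CFLOG000825.1 (858 nt) had 15.4 and 16.9 rescaled RPKM in embryo, 12.6 and 3.40 in instar 1 larva, 0.230 and 2.00 in instar 4 larva, and 15.2 and 12.5 in early pupa. Its later values were 0 and 0.0858 in late pupa major, 0.17 and 0 in late pupa minor, 0.143 in male, and 0.132 and 0.198 in minor. Embryo and early pupa were nearly level and every late pupa and adult library was near 0. Those 7 libraries held between 0 and 4 reads of CFLOG000825.1, against 387 and 270 reads in the early pupa libraries.

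In 2 genes the instar 1 larva, which the rule left free, was the highest group. CFLOG002847.2, the shortest of the 8 at 393 nt, had 32.8 and 81.0 rescaled RPKM in embryo, 125 and 220 in instar 1 larva, 1.34 and 0.345 in instar 4 larva, and 206 and 38.3 in early pupa. It had 39.7 and 4.68 in late pupa major, 2.35 and 2.03 in late pupa minor, 2.74 in male, and 0.868 and 1.08 in minor. Its early pupa mean of 122 ± 118 (SD, n = 2) was the highest of the 8 genes in rescaled RPKM and rested on replicate 1. On the log2 scale its mean was 6.49, below the 6.55 of CFLOG009320.1. In CFLOG002847.2, late pupa major replicate 1 lay above early pupa replicate 2 and embryo replicate 1. It was the 1 gene of the 8 in which a low group overlapped a high group. In the other 7 genes every embryo and early pupa library stood above every library of the low groups, as the choice of genes favours.

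CFLOG004482.2 was the longest of the 8 at 7923 nt. It had 5.34 and 20.7 rescaled RPKM in embryo, 17.3 and 28.8 in instar 1 larva, 0.599 and 1.54 in instar 4 larva, and 8.77 and 20.2 in early pupa. Its later values were 2.56 and 2.44 in late pupa major, 0.533 and 0.716 in late pupa minor, 0.734 in male, and 0.229 and 0.182 in minor. All 3 early groups other than instar 4 larva lay above every later library. The embryo libraries of CFLOG004482.2 were far enough apart that the early pupa values fell between them.

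The remaining 3 genes were highest in early pupa. CFLOG009320.1 (525 nt) had 22.2 and 46.7 rescaled RPKM in embryo, 12.9 and 4.98 in instar 1 larva, 4.64 and 17.6 in instar 4 larva, and 122 and 70.7 in early pupa. It had 0.691 and 0.981 in late pupa major, 0.277 and 0.379 in late pupa minor, 1.93 in male, and 0.0541 and 0 in minor. Both early pupa libraries were above both embryo libraries, and the larval instars overlapped each other. CFLOG009320.1 thus kept the highest instar 4 larva mean of the 8 genes, 11.1 ± 9.15 (SD, n = 2), and was among the scarcest in late pupae.

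CFLOG008132.2 (1704 nt) had 10.7 and 17.6 rescaled RPKM in embryo, 14.4 and 10.6 in instar 1 larva, 1.93 and 5.07 in instar 4 larva, and 29.8 and 23.5 in early pupa. It had 2.94 and 2.42 in late pupa major, 1.17 and 2.45 in late pupa minor, 1.14 in male, and 1.73 and 3.99 in minor. It was the 1 gene of the 8 above 1 rescaled RPKM in every library. Its early pupa mean was 7.60 times that of instar 4 larva, the lowest such ratio of the 8 genes, and its embryo mean 4.05 times.

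CFLOG008805.2 (1356 nt) had the lowest level of the 8 in both high groups. It had 2.51 and 13.4 rescaled RPKM in embryo, 3.37 and 0.586 in instar 1 larva, 0.243 and 0.667 in instar 4 larva, and 10.6 and 8.26 in early pupa. Its later values were 1.76 and 0.705 in late pupa major, 0.537 and 1.62 in late pupa minor, 0.0454 in male, and 0.105 and 0.376 in minor. The early pupa replicates were closer to each other than the embryo replicates were, and the lower embryo library stood just above the highest low library.

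**Figure D2:**
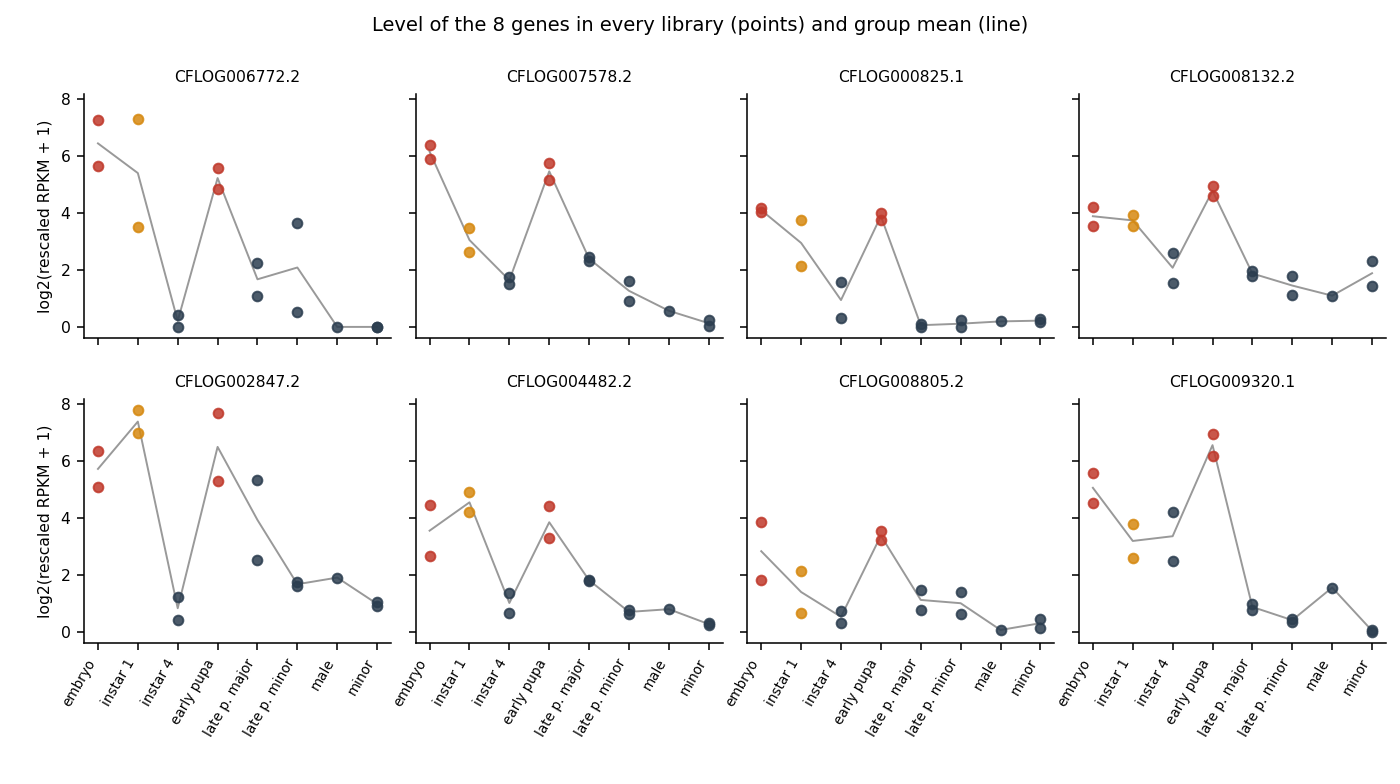
Level of each of the 8 genes, as log2(rescaled RPKM + 1), in every library (points) with the group mean as a line, for the 8 groups in order of development. Red marks embryo and early pupa, ochre instar 1 larva and dark blue the 5 low groups, and in all 8 panels the line is lower at instar 4 larva than at embryo and higher again at early pupa.

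Levels of the 8 genes ranged from 2.51 to 151 rescaled RPKM in embryo with a median of 21.4, from 0.586 to 220 in instar 1 larva with a median of 11.6, and from 8.26 to 206 in early pupa with a median of 28.9. In the 5 low groups the 72 values had a median of 0.801, and 39 of them lay under 1. Only 3 of the 72 reached 10, and they belonged to CFLOG002847.2 in late pupa major, CFLOG006772.2 in late pupa minor and CFLOG009320.1 in instar 4 larva. Of the 120 values over all groups, 7 held 0 reads and 10 held 1 to 3 reads, all of them in the low groups. The highest low group was late pupa major in 4 genes, instar 4 larva in 3 and late pupa minor in 1.

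Early pupa was higher than embryo in 5 genes and lower in 3. The genes most tilted to early pupa were CFLOG009320.1 with a log2 difference of 1.498 and CFLOG008132.2 with 0.89. Those most tilted to embryo were CFLOG006772.2 with -1.22 and CFLOG007578.2 with -0.69. Libraries of these groups did not overlap in 5 of the 8 genes, where 73.6% of all 10619 tested genes did not overlap. The rule limited this difference in the 8 genes and not in all tested genes, so nothing is read from that count. The direction depended on the scale. With RPKM as deposited, the median of all genes stood at -0.82 for early pupa minus embryo, and 4 genes (CFLOG002847.2, CFLOG004482.2, CFLOG008132.2 and CFLOG008805.2) turned to lower in early pupa.

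In 5 of the 7 groups with replicates, the 8 genes differed more between replicates than genes at large. In embryo, replicate 2 was higher than replicate 1 in 7 of the 8 genes, with a median difference of 1.16 on the log2 scale. Over all tested genes the median difference of the embryo replicates was -0.03 and its median size 0.21. In instar 1 larva, replicate 2 was higher in 2 of the 8 genes, with a median difference of -1.02 against -0.01 in all tested genes. Early pupa replicates differed less, by a median size of 0.67 in the 8 genes and 0.18 in all tested genes. The median size in the 8 genes was also larger than in all tested genes in instar 4 larva, at 0.73 and 0.36, and in late pupa minor, at 0.45 and 0.35. It was smaller in late pupa major, at 0.22 and 0.28, and in minor, at 0.12 and 0.38. Most of the 8 genes averaged under 1 rescaled RPKM in minor, where adding 1 before the log shrinks differences.

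Membership depended on single libraries. Leaving out 1 library at a time, CFLOG000825.1 and CFLOG007578.2 met the rule in 14 of 14 runs, and the other 6 genes in 10 to 12. Without embryo replicate 2, 3 of the 8 genes met it, and they were the 3 of widest margin. Without early pupa replicate 2, 4 of the 8 met it. On RPKM as deposited, 32 genes met the rule, among them 6 of the 8, because the embryo of CFLOG006772.2 and CFLOG007578.2 then stood more than 1.5 above early pupa.

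**Figure D3:**
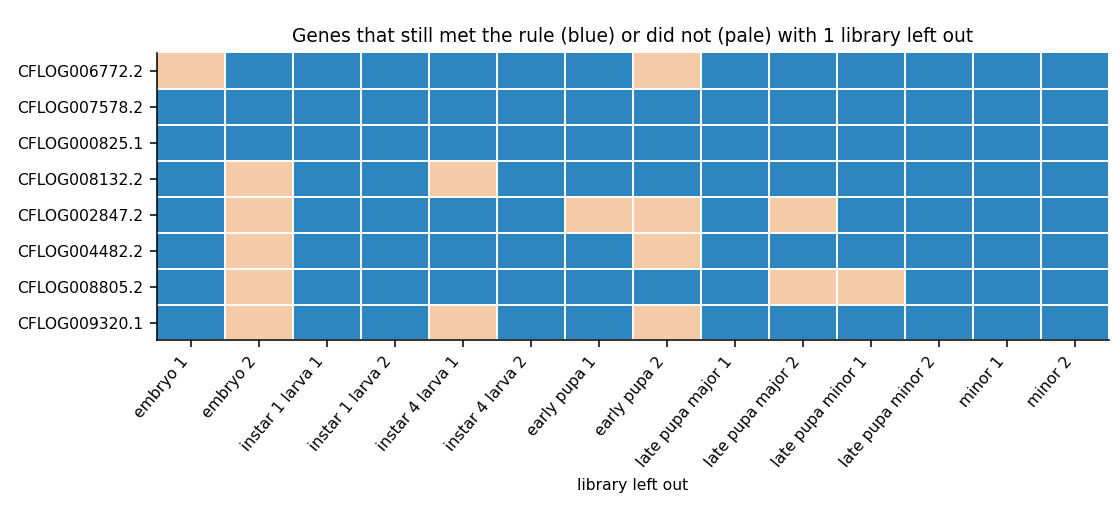
Rows are the 8 genes and columns the 14 libraries that could be left out, since the only male library could not. Blue marks a gene that still met the rule and pale orange one that did not, and the column of embryo replicate 2 has the most pale cells, 5 of 8.

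As a set the 8 genes took up a small part of each library. Their summed share of the deposited RPKM was 0.147% and 0.234% in embryo, 0.168% and 0.126% in instar 1 larva, 0.00273% and 0.00722% in instar 4 larva, and 0.127% and 0.0805% in early pupa. It was 0.0110% and 0.00486% in late pupa major, 0.00161% and 0.00433% in late pupa minor, 0.00350% in male, and 0.000942% and 0.00113% in minor. The libraries of embryo, instar 1 larva and early pupa all stood at 0.0805% or more, and no other library stood above 0.0110%. None of the 8 genes (0) was among the 50 most abundant rows of any library. In embryo each of them stood above 81.3% to 98.9% of all rows, and in early pupa above 84.4% to 98.7%.

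The question left free by the rule is where the instar 1 larva stood. On a scale on which the instar 4 larva mean is 0 and the embryo mean is 1, the 8 genes had a median position of 0.73 in instar 1 larva, and 5 of 8 (62.5%) lay nearer to embryo. Among 371 other CFLOG genes with an embryo mean at least 1.5 above instar 4 larva, the median position was 0.51 and 52.3% lay nearer to embryo. The median of the 8 genes depended on the replicate: it was 0.45, with 4 of 8 nearer to embryo, without instar 1 larva replicate 1, and 0.96, with 6 of 8, without replicate 2. The positions of the 8 genes were widely spread. CFLOG004482.2 at 1.39 and CFLOG002847.2 at 1.34 lay above embryo, while CFLOG009320.1 at -0.10 and CFLOG007578.2 at 0.31 lay lowest. The lowest position was not stable. It was 0.34 on RPKM as deposited, 0.27 without instar 4 larva replicate 2, 0.26 without instar 1 larva replicate 2, -0.46 without instar 1 larva replicate 1 and -1.22 without instar 4 larva replicate 1. In 5 of the 8 genes the instar 1 larva mean was itself at least 1.5 above every low group. The ends of this scale were chosen by the rule, so the positions are a description.

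**Figure D4:**
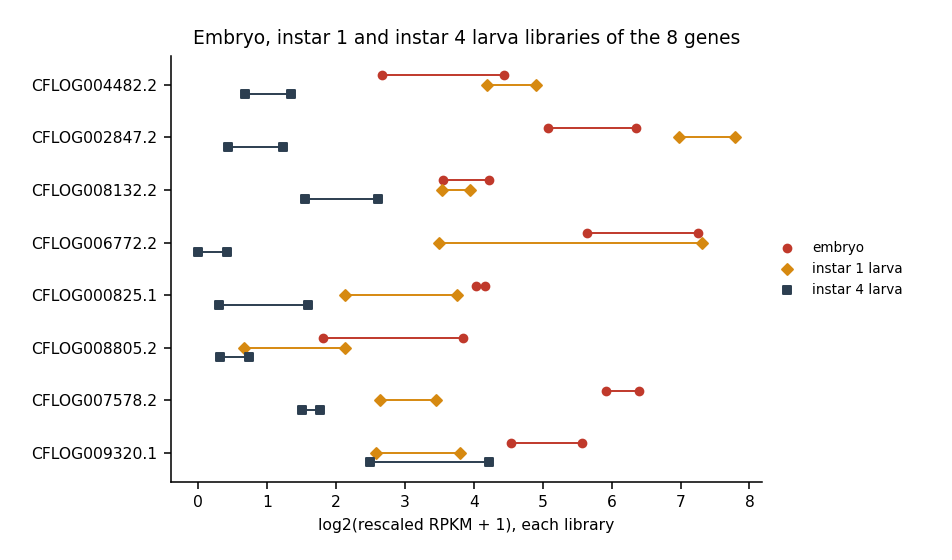
Level of each of the 8 genes, as log2(rescaled RPKM + 1) on the x axis, in the embryo (red circles), instar 1 larva (ochre diamonds) and instar 4 larva (dark squares), with 1 symbol per library and a line joining replicates. Genes run from the highest instar 1 position at the top (1.39) to the lowest (-0.10), and the instar 1 replicates of CFLOG006772.2 are the widest apart.

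The differences of instar 1 larva from embryo and of instar 4 larva from instar 1 larva each have 1 side that the rule chose, so they are described without a test of any gene. CFLOG007578.2 averaged 7.62 ± 3.36 rescaled RPKM in instar 1 larva and 71.1 ± 16.8 in embryo (SD, n = 2 each), a log2 difference of -3.10 and the widest gap below embryo of the 8 genes. CFLOG009320.1 had 8.95 ± 5.61 in instar 1 larva and 34.4 ± 17.3 in embryo (SD, n = 2 each), a log2 difference of -1.87. The instar 1 larva libraries lay wholly below those of embryo in both. In the fit over all genes, 1 of the 8 was past the adjusted threshold of 0.05 between instar 1 larva and embryo, where 2.13% of all tested genes were past it. The embryo was chosen to be high, so nothing is read from that count.

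CFLOG002847.2 averaged 0.843 ± 0.704 rescaled RPKM in instar 4 larva and 172 ± 67.1 in instar 1 larva (SD, n = 2 each), a log2 difference of -6.55. CFLOG006772.2 averaged 0.17 ± 0.24 in instar 4 larva and 83.7 ± 104 in instar 1 larva (SD, n = 2 each), a log2 difference of -5.19 that was -3.29 without instar 1 larva replicate 1. These were the widest gaps between the larval instars among the 8 genes. CFLOG000825.1, CFLOG004482.2, CFLOG007578.2 and CFLOG008132.2 had differences from -3.53 to -1.41. CFLOG008805.2 had -0.87 and CFLOG009320.1 had 0.17. The sign of the last one turned on RPKM as deposited, on which the median of all genes moved to -1.03, and under upper quartile scaling, on which it moved to -0.14. In the fit over all genes, 6 of the 8 were past the adjusted threshold as lower in instar 4 larva, where 2.68% of all tested genes were, and 2 of the 8 without instar 1 larva replicate 1. The instar 4 larva was chosen to be low, so nothing is read from this count either.

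The late pupae and the adults all had to be low, so the rule set a ceiling on each of these groups. It did not use the differences among them, but the ceiling limits their size. The shares of all tested genes given below cover genes without that ceiling, so the counts of the 8 genes are set beside them as a description. Between late pupae of the worker castes, none of the 8 genes (0) passed the adjusted threshold of 0.05 in limma, where 1.47% of all tested genes did. At an unadjusted p under 0.05, 3 of the 8 were higher in late pupa major and 0 were lower. Of all 10619 tested genes, 2431 had such a p in either direction. In 6 of the 8 the mean was higher in late pupa major, with a median log2 difference of 0.44 against 0 over all tested genes. With late pupa minor replicate 1 left out that median was 0.25, and with replicate 2 of the same group left out it was 0.95. The count of 3 at an unadjusted p was 2 when late pupa major replicate 2 was left out and 1 when any of the other 3 libraries was. Late pupa major libraries lay wholly above late pupa minor libraries in 4 genes and wholly below in 0, where 26.0% of all tested genes lay wholly above and 25.4% wholly below.

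The 3 genes with an unadjusted p under 0.05 are named after their values were seen. CFLOG007578.2 averaged 4.26 ± 0.387 rescaled RPKM in late pupa major and 1.48 ± 0.842 in late pupa minor (SD, n = 2 each), a log2 difference of 1.13 ± 0.34 (SE; limma, adjusted p = 0.095). CFLOG004482.2 averaged 2.5 ± 0.085 in late pupa major and 0.625 ± 0.13 in late pupa minor (SD, n = 2 each), a difference of 1.11 ± 0.50 (SE; limma, adjusted p = 0.21). CFLOG002847.2 averaged 22.2 ± 24.7 in late pupa major and 2.19 ± 0.225 in late pupa minor (SD, n = 2 each), a difference of 2.26 ± 0.84 (SE; limma, adjusted p = 0.15). In the last gene the height was that of late pupa major replicate 1, and without it the difference was 0.84. The libraries did not overlap in any of these 3 genes, but no difference passed the adjusted threshold. These SEs take in the spread of all groups. With only the late pupae in the fit, the SE was 0.33 for CFLOG007578.2, 0.17 for CFLOG004482.2 and 1.03 for CFLOG002847.2. No difference of the 3 genes passed there either.

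Between the adult minor and the late pupa minor, 1 of the 8 genes passed. CFLOG007578.2 averaged 0.0959 ± 0.115 rescaled RPKM in minor and 1.48 ± 0.842 in late pupa minor (SD, n = 2 each), a log2 difference of -1.14 ± 0.34 (SE; limma, adjusted p = 0.022). Among all tested genes 33.3% were past the threshold in either direction. The minor libraries held 1 and 4 reads of CFLOG007578.2, and the late pupa minor libraries 35 and 40. The call was lost on RPKM as deposited, with a difference of -0.87 and an adjusted p of 0.24 in limma, and with only these groups in the fit, with an adjusted p of 0.069. It was also lost without late pupa minor replicate 2 (-0.79, adjusted p = 0.16), without minor replicate 1 (-1.03, adjusted p = 0.083) and without minor replicate 2 (-1.25, adjusted p = 0.071).

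In 6 of the 8 genes the minor libraries lay wholly below the late pupa minor libraries and in 0 wholly above, where 31.3% of all tested genes lay wholly below and 31.4% wholly above. The median log2 difference was -0.56 over the 8 genes and 0 over all tested genes. At an unadjusted p under 0.05 in limma, 1 of the 8 was lower in minor and 0 were higher. With only minor and late pupa minor in the fit, 4 of the 8 were lower and 0 higher. Of all tested genes, 4684 had such a p in the main fit and 3301 with only those groups. CFLOG006772.2, with 0 in both minor libraries and 0.437 and 11.5 in late pupa minor, had a difference of -2.09 ± 1.09 that did not pass (limma, adjusted p = 0.16). It passed without late pupa minor replicate 1 (-3.65, limma adjusted p = 0.027) and with a pseudocount of 0.1 (-4.64, limma adjusted p = 0.023), and was -0.52 without late pupa minor replicate 2. CFLOG008132.2 went the other way, at 2.86 ± 1.59 in minor and 1.81 ± 0.91 in late pupa minor (SD, n = 2 each), and did not pass (limma, adjusted p = 0.44).

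Between the male and the minor, none of the 8 genes (0) passed in limma, where 11.5% of all tested genes did. An unadjusted p under 0.05 was found in 3415 of all 10619 tested genes and in 1 of the 8. The lone male library is taken to vary like the other groups. That gene, CFLOG009320.1, had 1.93 rescaled RPKM in male and 0.0541 and 0 in minor, a log2 difference of 1.52 ± 0.66 (SE; limma, adjusted p = 0.13). These are 33 reads in male and 1 and 0 reads in minor. With only male and minor in the fit, the difference of CFLOG009320.1 was the same and its SE was smaller, and it did not pass. With a pseudocount of 0.1 in place of 1, the difference of CFLOG009320.1 was 4.03 and passed (limma, adjusted p = 0.013). The male value lay above both minor libraries in 4 genes and below both in 2, where 40.3% of all tested genes lay above both and 41.6% below both. CFLOG000825.1, which was lower in male by 0.03 on the log2 scale, turned to higher in male on RPKM as deposited, on which the median of all genes stood at 0.62, and under upper quartile scaling, on which it stood at 0.14.

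**Figure D5:**
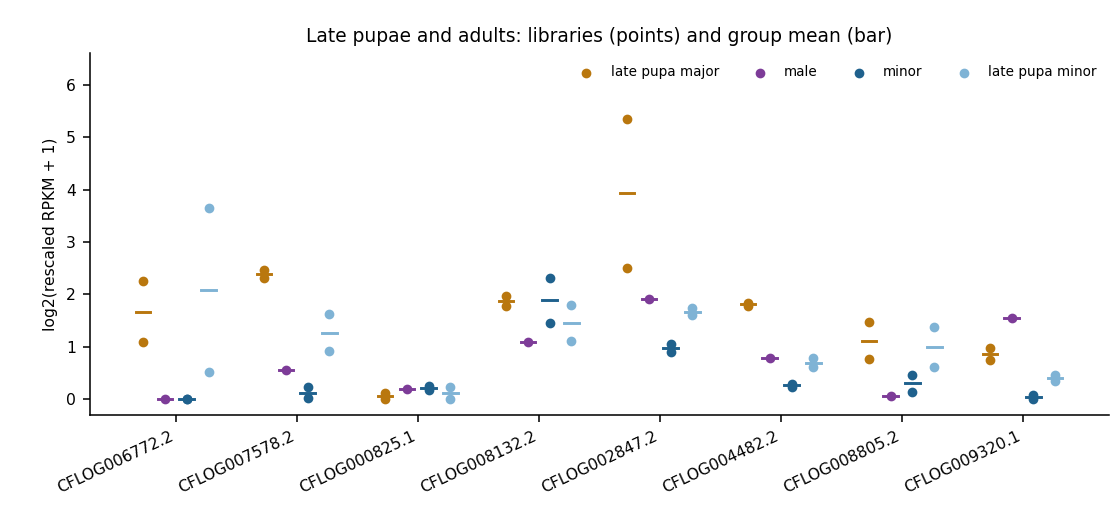
Level of each of the 8 genes, as log2(rescaled RPKM + 1) on the y axis, in late pupa major, male, minor and late pupa minor, with a point per library and a bar at the group mean. The highest point is CFLOG002847.2 in late pupa major replicate 1, and CFLOG006772.2 lies at 0 in the male and both minor libraries.

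The gene length used in the RPKM, which the rule did not use, was recovered for all 8 genes from the 1-read steps of their RPKM values. The sources used here do not state which part of a gene this length covers. It ran from 393 to 7923 nt with a median of 1107 nt, and 8 of 8 lengths were multiples of 3, as were 92.7% of the lengths recovered for other tested CFLOG genes. A comparison of length with other genes is void, since a length was recovered for 66.3% of the other tested CFLOG genes, under 80%.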

How the data were processed

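Libraries of whole-body RNA kept the strand through dUTP, per the labels' protocols. The submitters' processing notes list STAR 2.5.0b and DESeq2, with no role given. Neither the genome build, nor the annotation, nor the counting method is given in the sources used here; the table deposited by the authors holds RPKM for 18979 rows (18620 CFLOG, 359 XLOC) in 15 libraries. None (0) of the IDs matched the 14020 genes of the RefSeq table for this species, so no gene list could be counted and no sequence is shown. The 8 genes, and the lists and tests, were chosen with earlier results of these data known.

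The factor of a library was the median, over 9990 genes above 0 in all libraries, of its values relative to their geometric mean. Differences were tested with limma 3.58.1 (R 4.3.3) on log2(rescaled RPKM + 1), with 1 term per group, all 15 libraries, eBayes with a trend, two-sided p-values and Benjamini-Hochberg adjustment over the 10619 genes with at least 1 rescaled RPKM in at least 2 libraries, at a threshold of 0.05. All 8 genes passed this filter. CFLOG000825.1 did so only through embryo, instar 1 larva and early pupa, while the others also passed it on the low groups alone. The pseudocount understates changes of low genes. SEs are those of limma, and means and SDs are of rescaled RPKM. Read numbers and gene lengths were recovered from 1-read steps of the RPKM values, and the read numbers of the 8 genes came within 0.0089 of a whole read. Lacking molecular identifiers, reads cannot be taken as independent molecules. Reads of near-identical gene copies could not be looked up. The depth and limma steps were tested on simulated data.

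Genes were named by a rule on the highest means, widest and narrowest margins, instar 1 larva position, tilt between embryo and early pupa, and the largest changes past the threshold. Other values are those of the 8 genes. Alternatives were RPKM as deposited, a pseudocount of 0.1, no filter, other margins and limits, other scaling, a replicate block, only the compared groups, and each library left out in turn. Figures were drawn with matplotlib 3.10.9.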

Additional observations from a re-analysis of the deposited data

Results flagged for a closer look

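The same rule applied to the 359 rows with the ID prefix XLOC, which were outside the choice of the 8 genes, was met by XLOC_009744 and XLOC_063912. XLOC_009744 stood 3.06 above the highest low group on the log2 scale. It averaged 55.9 ± 14.7 rescaled RPKM in embryo, 8.58 ± 4.47 in instar 1 larva, 2.54 ± 0.884 in instar 4 larva and 29.3 ± 11.8 in early pupa (SD, n = 2 each), and its highest later library had 3.57. XLOC_063912 stood 2.16 above the highest low group. It averaged 29.2 ± 6.37 in embryo, 4.68 ± 2.10 in instar 1 larva, 1.88 ± 0.495 in instar 4 larva and 14.3 ± 4.44 in early pupa (SD, n = 2 each), and its highest later library had 2.73. In both rows every embryo and early pupa library lay above every library of the low groups, and embryo replicate 1 was higher than replicate 2, unlike in 7 of the 8 genes.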

How the results depend on the processing

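The number of genes that met the rule, 8, became 32 on RPKM as deposited (6 of the 8 among them), 13 with a pseudocount of 0.1 (7 of the 8), 19 with a margin of 1 and 3 with a margin of 2. It stayed within 1.5 times under the other settings and ran from 3 to 11 with 1 library left out. With ratios over CFLOG rows alone, an alternative added after the data were seen, 7 of the 8 met it. The count of the 8 genes past the threshold for minor against late pupa minor, 1, was 0 on RPKM as deposited, 3 with a pseudocount of 0.1, 0 with only the compared groups in the fit, and 0 to 2 with 1 library left out. For male against minor it was 1 in place of 0 with a pseudocount of 0.1. For instar 1 larva against embryo it was 1 to 2 with 1 library left out. For instar 4 larva against instar 1 larva, 6, it was 2 without a filter, 2 with only the compared groups and 2 to 5 with 1 library left out. The difference of CFLOG006772.2 in that comparison ranged from -7.09 to -3.29 with 1 library left out. Leaving the 50 most abundant rows out of the total made the mean share of the 8 genes 0.225% in place of 0.147% in instar 1 larva and 0.236% in place of 0.104% in early pupa. None of the 8 genes was among those 50 rows, so leaving them out lowered the total and not the sum of the 8 genes. The cause of the other changes was not tested.

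Over all genes, the 156 calls between late pupa castes were 46 on RPKM as deposited, 32 with a pseudocount of 0.1, 0 with only the compared groups (1824 at an unadjusted p under 0.05) and 28 to 385 with 1 library left out. The 3536 calls for minor against late pupa minor (1945 higher, 1591 lower) were 1768 on RPKM as deposited (1212 higher, 556 lower), 812 with only the compared groups and 1877 to 3820 with 1 library left out. The 1224 calls for male against minor were 0 with only the compared groups (1454 at an unadjusted p under 0.05) and 277 to 2825 with 1 library left out, and were 512 higher and 712 lower, against 1221 higher and 106 lower on RPKM as deposited. The 226 calls for instar 1 larva against embryo (132 higher, 94 lower) split into 154 higher and 165 lower on RPKM as deposited, and were 139 with a pseudocount of 0.1, 139 without a filter, 97 with only the compared groups and 11 to 359 with 1 library left out. The 834 calls for instar 4 larva against instar 1 larva (549 higher, 285 lower) were 5524 on RPKM as deposited (149 higher, 5375 lower), 264 with only the compared groups and 374 to 1024 with 1 library left out.

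Same-numbered replicates did not deviate in a common direction: over 21 pairs of groups the correlation ran from -0.36 to 0.23. It was over 0.1 in 4 pairs and under -0.1 in 6. These values cannot exclude a source shared by some of the groups, and the main fit did not pair samples by number. With a replicate block the counts of the 8 genes stayed at 0, 1, 0, 1 and 6 in the 5 comparisons, and the 1224 calls for male against minor became 598.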

Other observations

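Other values near the 8 genes are given without explanation, for rows chosen after their values were seen. The sources used here do not state whether neighbouring ID numbers are neighbours in the genome. Of 42 CFLOG rows within 3 numbers of one of the 8 genes, 2 had a margin of at least 1 over the low groups, CFLOG002849.2 and CFLOG000823.2. CFLOG002848.1 and CFLOG002849.2 follow CFLOG002847.2 in number. Their replicates had the order of those of CFLOG002847.2 in 3 of the 7 replicated groups and the opposite order in the other 4. CFLOG002848.1 had 339 and 565 rescaled RPKM in instar 1 larva, 535 and 148 in early pupa, and 162 and 54.3 in late pupa major. CFLOG002849.2 had 70.0 and 98.1 in instar 1 larva, 106 and 28.5 in early pupa, and 17.6 and 5.09 in late pupa major. These are the groups of like order. In embryo, where replicate 2 was higher in CFLOG002847.2, CFLOG002848.1 had 121 and 78.6 and CFLOG002849.2 had 25.7 and 23.6. In instar 4 larva, where replicate 1 was higher in CFLOG002847.2, CFLOG002848.1 had 17.6 and 26.8 and CFLOG002849.2 had 3.74 and 7.72. In late pupa minor, where replicate 1 was higher in CFLOG002847.2, CFLOG002848.1 had 33.1 and 40.9 and CFLOG002849.2 had 1.04 and 3.06. In minor, where replicate 2 was higher in CFLOG002847.2, CFLOG002848.1 had 29.9 and 23.0 and CFLOG002849.2 had 1.18 and 0.522.

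CFLOG008802.1, which lies 3 numbers before CFLOG008805.2, had 79.7 and 186 rescaled RPKM in embryo and 41.4 and 60.3 in early pupa, with 0.0421 and 0.0578 in instar 4 larva. It did not meet the rule because its late pupa libraries were high, at 27.1 and 59.9 for major and 14.3 and 85.0 for minor. Its adult values were 0.0295 in male, and 0.136 and 0.0542 in minor.

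Over the 8 group means, Pearson's r between pairs of the 8 genes ran from 0.67 to 0.98 over 28 pairs, with a median of 0.88. The choice of the genes fixes most of this likeness. The highest value joined CFLOG002847.2 and CFLOG004482.2, the 2 genes that were highest in instar 1 larva, and the lowest joined CFLOG002847.2 and CFLOG009320.1.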
